A study of Homo sapiens with 63 samples.

Results

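Polyadenylated RNA of serum-starved HEK293 cells was compared with that of log phase HEK293 cells in gradient fractions 18 to 22, using 10 of the 63 samples of the series. The 5 starved samples came from cells kept for 2 h without serum, and the 5 log phase samples from cells growing in DMEM with 10% fetal bovine serum and penicillin and streptomycin. HEK293 is a human embryonic kidney line. Both cultures received cycloheximide, which holds ribosomes on mRNA, for 10 min before lysis, so no sample was free of it. The series as a whole held 60 fractions, 20 for each of 3 conditions, and 3 lysates, and the remaining condition was 1 h without amino acids in a medium that contained serum. The samples were chosen by condition and fraction number alone.

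Each condition was represented by 1 gradient. The 5 fractions of a gradient are neighbouring slices of the same lysate and not replicates, so the standard deviations below describe the spread over fractions, and no p-value was computed. Values are given per 1000000 of the summed gene signal of a fraction. They are shares of a fraction and not amounts of RNA, and fewer cells and less RNA per cell cannot be told apart on this scale. Whether numbering began at the light or the heavy end is not in the labels, and fractions are therefore named by number alone.

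Growth factors in serum act on mRNA at several levels. Serum lipids and bone morphogenetic proteins keep a small group of short-lived transcripts on, among them the ID genes and the YAP targets CYR61 and CTGF. Signalling through mTORC1 keeps on ribosomes the mRNAs of ribosomal proteins and translation factors, which begin with a run of pyrimidines called the terminal oligopyrimidine (TOP) tract. Loss of PI3K and AKT signalling lets FOXO transcription factors into the nucleus, and TFEB and its relatives drive lysosomal genes.

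The first bases of several of these mRNAs are shown because the TOP tract lies there. Each sequence below runs from 5 bases before the annotated start to 20 bases from it, read from RefSeq on GRCh38.p14, and capitals mark an unbroken run of C and T that begins at the start.
EEF1A1: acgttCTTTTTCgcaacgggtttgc
TPT1: tcggcCTTTTCCgcccgctcccccc
RPS6: tggccCTCTTTTCCgtggcgcctcg
RPS3A: ttccgCCCTTTTggctctctgacca
RACK1: tctctCTCTCTTTCactgcaaggcg
RPL29: cctttCTCTTCCggttctaggcgct
RPL41: cctttCTCTCggccttagcgccatt
AMD1: ctctcgcttacacagtatggccggc
ID1: ctctcattccacgttcttaactgtt
They lie at chr6:73521013-73521037 on the minus strand (EEF1A1), chr13:45341164-45341188 minus (TPT1), chr9:19380217-19380241 minus (RPS6), chr4:151099623-151099647 plus (RPS3A), chr5:181243887-181243911 minus (RACK1), chr3:51995876-51995900 minus (RPL29), chr12:56116628-56116652 plus (RPL41), chr6:110874780-110874804 plus (AMD1) and chr20:31605284-31605308 plus (ID1). For AMD1 and ID1 the first annotated start without such a run was printed, and for the other genes the first with one. The contrast between them was therefore set by this choice and is no result. The AMD1 start used lies inside the annotated span of the gene, chr6:110814617-110895713.

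A difference is the serum-starved minus the log phase value of log2(value per 1000000 + 1) in fractions of the same number, averaged over the 5 fractions. A gene met the size rule with an average of at least 1 in either direction and the same sign in 5 of 5 fractions. Of 8391 genes with a mean of at least 5 per 1000000, 405 (4.83%) were higher by this rule in the starved fractions and 36 (0.429%) were lower. This mean was taken over both gradients. Some genes, NPC1 and SLC7A11 among them, reached it only through the gradient where they were high. Gene lists and their members were chosen with earlier results of these data known, so the shares of lists given below are descriptions. The median over all tested genes was 0.20 and the range -2.66 to 1.86. The members nearest to the limit were SLC38A10 at 1.00 and ANKRD40 at -1.001, and the nearest genes outside it were VPS28 at 0.999857 and NTAN1 at -0.99. For 922 genes (11.0%) all 5 starved fractions lay above all 5 log phase fractions, and for 94 genes (1.12%) they lay below.

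The split between higher and lower genes depended on the scale. It was 405 to 36 as shares of all gene signal, 142 to 86 after centring each fraction on its median gene, and 150 to 85 when ribosomal protein and other TOP mRNAs were left out of the total. Scaled to the summed ERCC spike-in RNAs, 7 genes were higher and 980 lower, and the median of all genes was -0.50. On the deposited scale, 0 were higher and 7970 lower, with a median of -1.79, and the deposited totals over the 5 fractions were 3.65621e+07 without serum and 1.70962e+08 in log phase. Higher and lower below therefore mean relative to the total of a fraction. The spike-in scale named below uses the ERCC RNAs alone. Of the gene lists described, those whose median stayed above 0 on it were the FOXO, serine and one-carbon, endoplasmic reticulum chaperone, collagen, laminin and cathepsin lists. The serine and one-carbon median was only 0.08 and the endoplasmic reticulum chaperone median 0.04. Whether these medians would stay above 0 on a scale from the luciferase RNA was not tested. Except in fraction 19, the luciferase share of the gene total rose by a larger factor without serum than the ERCC share. In fraction 18 it was 0.44% without serum and 0.216% in log phase, against 0.0383% and 0.0257% for the ERCC RNAs. All list medians were negative on the deposited scale. The 7 genes that also met the rule on the spike-in scale were COL6A2, LAMB1, PCK2, C10orf10, SMOC1, GRN and COL6A1.

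**Figure D1:**
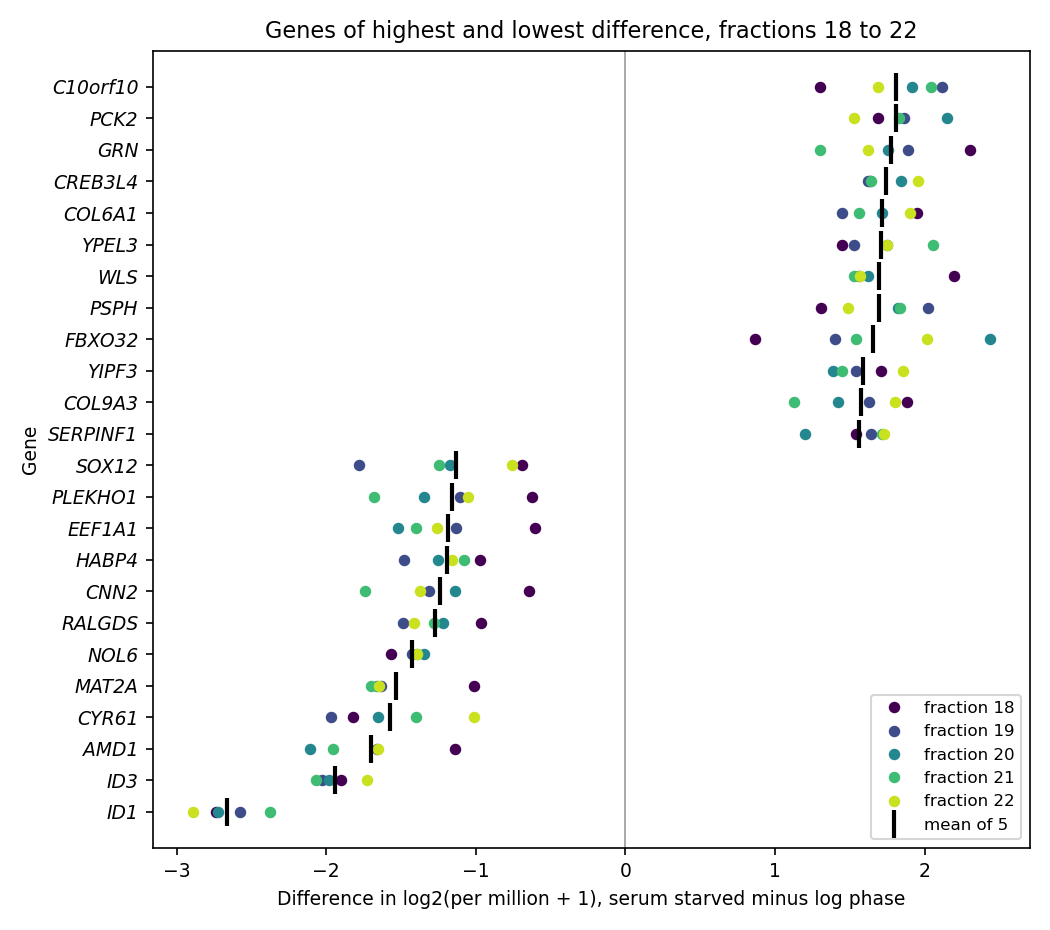
Differences in log2(value per 1000000 + 1), serum starved minus log phase, for the 12 highest and 12 lowest genes that met the size rule with at least 20 per 1000000 in either gradient. Points are the 5 fractions and black bars their means, which run from 1.81 for C10orf10 to -2.66 for ID1.

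The lowest values belonged to genes that depend on serum signals. ID1, an inhibitor of basic helix-loop-helix transcription factors, had 15.9, 11.7, 8.52, 7.83 and 5.03 per 1000000 in serum-starved fractions 18 to 22, against 112, 74.7, 61.9, 44.8 and 43.7 in log phase. All starved values lay below all log phase values, and the difference was -2.66 ± 0.19 (SD over 5 fractions). Its relative ID3 had 77.6, 48.6, 35.6, 27.6 and 31.3 per 1000000 without serum, against 292, 202, 144, 119 and 106 in log phase, again without overlap and with a difference of -1.94 ± 0.13. SMAD6, an inhibitor of bone morphogenetic protein signalling, stood at -1.93 ± 0.55. The YAP targets CTGF and CYR61, secreted matricellular proteins, stood at -1.84 ± 0.39 and -1.57 ± 0.38, and the adaptor SHB at -1.05 ± 0.26. These were the 6 of 9 tested members of the list of ID, SMAD and YAP targets that met the rule. That is 66.7%, against 0.429% of all tested genes that were lower by it. The list had 13 members with values and was chosen with earlier results of these data known, so its share is only a description. The list's median was -1.57, or -2.20 on the spike-in scale. The starved means of SMAD6 and CTGF, 1.92 and 2.49 per 1000000, were near the 1 added before the logarithm. In log phase they were 10.4 and 11.4, so both genes passed the minimum mean of 5 only through log phase, where they were high. The other ID genes did not meet the rule. ID2 had 408, 317, 199, 163 and 140 per 1000000 without serum and 407, 319, 241, 169 and 148 in log phase, with a difference of -0.08 ± 0.11, and ID4 stood at 0.25 ± 0.17.

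Among genes with at least 20 per 1000000 in either gradient, AMD1 had the third lowest difference. It encodes adenosylmethionine decarboxylase, which makes the aminopropyl donor for spermidine and spermine. Its values were 122, 107, 66.7, 59.0 and 51.8 per 1000000 without serum, against 271, 339, 290, 232 and 165 in log phase. The groups did not overlap, and the difference was -1.70 ± 0.37. The first ATG after the AMD1 start printed above opens a short reading frame, shown here because such frames lie ahead of the main coding sequence. Capitals mark the frame from its ATG to its stop codon, at chr6:110874793-110874819 on the plus strand.
AMD1 upstream frame: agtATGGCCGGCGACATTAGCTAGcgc
ODC1, the ornithine decarboxylase that feeds the same pathway, stood at -0.56 ± 0.13 and did not meet the rule. MAT2A, which makes S-adenosylmethionine, had 60.0, 84.2, 144, 250 and 255 per 1000000 without serum and 122, 263, 456, 814 and 803 in log phase. It was lower in each matched fraction, with a difference of -1.53 ± 0.29, although the ranges of the gradients overlapped because both profiles climb toward fraction 22.

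The 12 lowest also held EEF1A1, described with the TOP mRNAs below, NOL6, a ribosome biogenesis factor, at -1.42 ± 0.08, RALGDS, an exchange factor for Ral GTPases, at -1.27 ± 0.20, CNN2, an actin-binding calponin, at -1.24 ± 0.40, HABP4 at -1.19 ± 0.19, PLEKHO1 at -1.16 ± 0.39 and SOX12, a transcription factor, at -1.13 ± 0.44. MT1X, a metallothionein, was also lower at -1.13 ± 0.11.

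**Figure D2:**
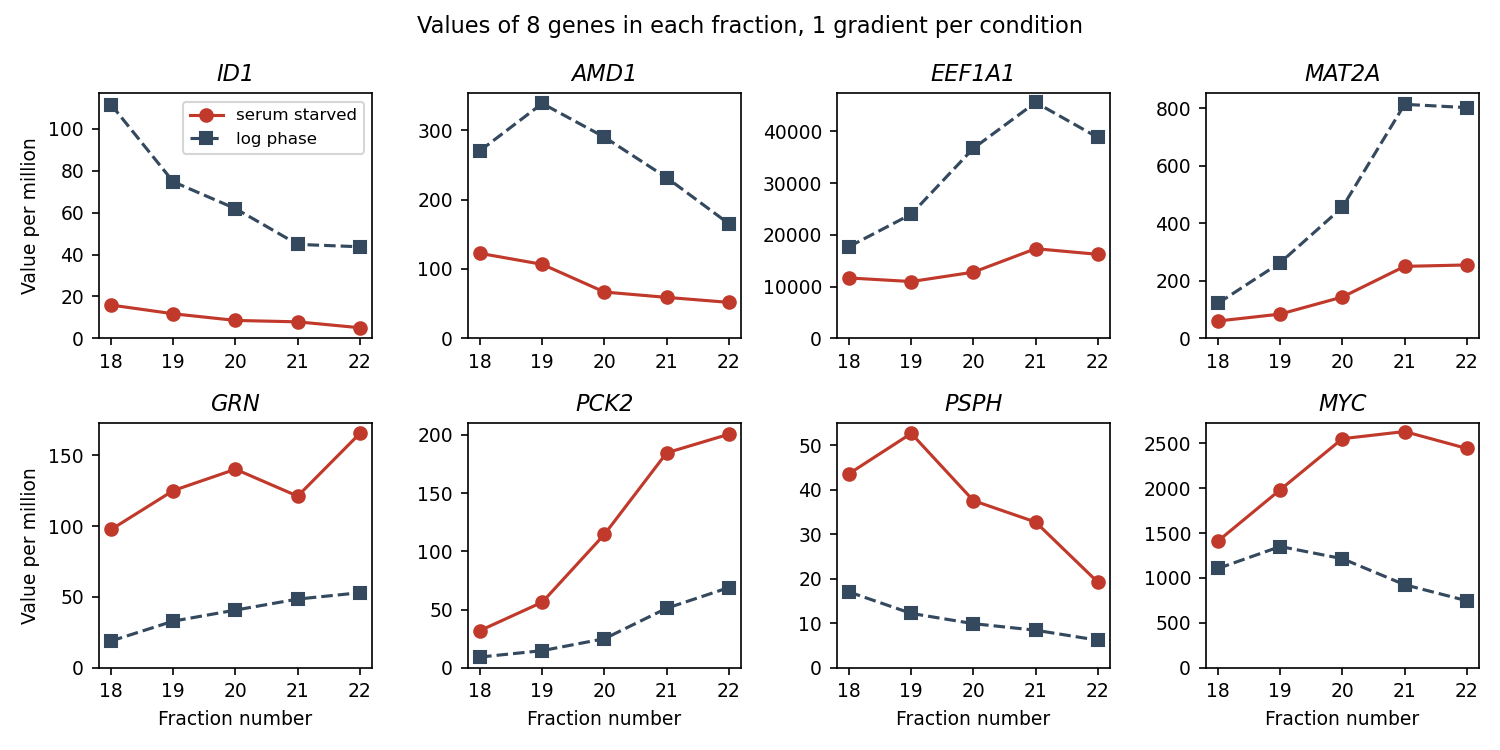
Values per 1000000 in fractions 18 to 22 for 8 genes, serum starved (red circles) and log phase (dark squares), 1 gradient per condition. ID1, AMD1, EEF1A1 and MAT2A lie lower without serum in each fraction, and GRN, PCK2, PSPH and MYC lie higher.

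TOP mRNAs made up less of these fractions without serum. The 107 mRNAs of ribosomal proteins and other TOP genes held 35.2%, 30.1%, 25.4%, 21.3% and 20.5% of the gene signal in starved fractions 18 to 22, against 44.4%, 39.9%, 37.6%, 31.9% and 29.3% in log phase. The share was lower without serum in each matched fraction. Most single genes moved by less than the size rule. Over all 8391 genes, 943 (11.2%) were lower in 5 of 5 fractions and 3209 (38.2%) higher, and 5716 (68.1%) had a mean difference above 0 and 2675 (31.9%) below it. Of 48 large subunit proteins, 0 met it in either direction, 38 were lower in 5 of 5 fractions, and the median was -0.39. Of 32 small subunit proteins, 0 met it, 28 were lower in 5 of 5 fractions, and the median was -0.43. Among 27 other TOP mRNAs, 2 (7.41%) were lower by the rule, EEF1A1 and TPT1, against 0.429% of all tested genes. The median of this list was -0.17. All 3 medians were negative in each scaling that was run. When starved fractions 18 to 21 were set against log phase fractions 19 to 22, the large and small subunit medians were -0.092 and -0.20, and with starved 19 to 22 against log phase 18 to 21 they were -0.68 and -0.67. Ribosomal protein genes have many processed pseudogenes, which makes their values uncertain.

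**Figure D3:**
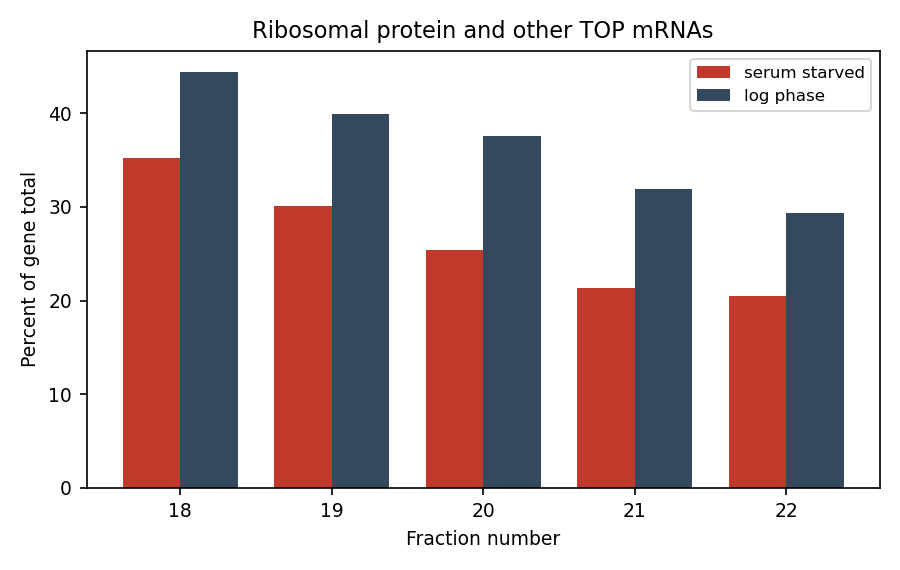
Percent of the gene signal of each fraction held by 107 ribosomal protein and other TOP mRNAs, serum starved (red) and log phase (dark). The starved bars run from 35.2% to 20.5% and the log phase bars from 44.4% to 29.3%.

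EEF1A1, the elongation factor that brings aminoacyl-tRNA to the ribosome, had 11663, 10966, 12786, 17322 and 16233 per 1000000 without serum, against 17728, 23994, 36748, 45609 and 38835 in log phase. The groups did not overlap, and the difference was -1.18 ± 0.36. TPT1, a translationally controlled tumour protein, had 2666, 2855, 1960, 1413 and 1172 per 1000000 without serum, against 4478, 5206, 4331, 3035 and 2611 in log phase, with a difference of -1.003 ± 0.18. The lowest ribosomal proteins were RPS3A at -0.94 ± 0.14, RPS6 at -0.93 ± 0.24 and RPL21 at -0.89 ± 0.08. PABPC1, the poly(A)-binding protein, stood at -0.81 ± 0.36. Several mRNAs of the same class stood elsewhere. RACK1, a ribosome scaffold, was at -0.45 ± 0.46, and EEF2, the translocation factor, at -0.08 ± 0.47. RPL29 and RPL41 were at 0.33 ± 0.14 and 0.28 ± 0.17 and higher in 5 of 5 fractions as shares, but all 107 lay below 0 on the spike-in scale.

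Starts of this kind were common in these lists. A start with C followed by at least 4 further pyrimidines was found in 28 of 39 large subunit promoters (71.8%), 19 of 25 small subunit promoters (76%) and 15 of 20 of the other TOP genes (75%), against 575 of 7057 tested genes with a RefSeq promoter entry (8.15%). The median difference of the 575 was 0.18, and that of the 6482 genes without such a start 0.20. Within the lists, members with and without it had medians of -0.37 and -0.44 for large subunit proteins, -0.48 and -0.27 for small subunit proteins, and -0.18 and 0.02 for the other TOP genes. RPL29 and RPL41 carry the run printed above, as do EEF1A1 and TPT1.

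Of 41 factors that build ribosomes, 0 met the size rule, and the median was -0.28. Of these, 33 were below 0, against 31.9% of all tested genes. Mitochondrial ribosomal proteins, which are not TOP mRNAs, had a median of 0.17 over 78 genes, and -0.04 after centring. Translation initiation factors outside the TOP class had a median of 0.24. Of 27, 1 (3.70%) was higher by the rule, against 4.83% of all tested genes. It was EIF2S2, the beta subunit of eIF2, at 1.26 ± 0.14.

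Several genes known to be switched on when growth factors are withdrawn were higher. Of 11 tested FOXO and growth factor withdrawal genes, 4 (36.4%) were higher by the rule, against 4.83% of all tested genes. All 11 were above 0, against 68.1% of all genes, and the median was 0.99, or 0.29 on the spike-in scale. YPEL3 had 35.7, 23.6, 22.4, 17.6 and 17.5 per 1000000 without serum, against 12.4, 7.53, 5.96, 3.46 and 4.51 in log phase, with no overlap and a difference of 1.71 ± 0.24. FBXO32, a muscle atrophy ubiquitin ligase subunit, stood at 1.65 ± 0.60, CITED2, a transcriptional coregulator, at 1.28 ± 0.31, and CDKN1B, the cyclin-dependent kinase inhibitor p27, at 1.06 ± 0.53. C10orf10 had the highest difference among genes with at least 20 per 1000000 in either gradient. Its values were 41.1, 46.4, 37.5, 26.7 and 26.3 per 1000000 without serum, against 16.1, 9.93, 9.19, 5.74 and 7.48 in log phase, a difference of 1.81 ± 0.33 without overlap.

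Several lysosomal genes were higher as shares. Of 27 tested autophagy and lysosome genes, 26 were above 0, against 68.1% of all genes. Their median was 0.62, but -0.09 on the spike-in scale. By the rule 7 (25.9%) were higher, against 4.83% of all tested genes. Among them were HEXA, a lysosomal hexosaminidase subunit, at 1.52 ± 0.29, the cholesterol transporter NPC1 at 1.23 ± 0.56, and the proteases CTSB, CTSL and CTSD at 1.11 ± 0.33, 1.05 ± 0.28 and 1.03 ± 0.12. HEXA had 241, 283, 262, 237 and 251 per 1000000 without serum, against 59.8, 92.2, 99.0, 97.8 and 98.5 in log phase, without overlap. Members that build autophagosomes did not meet the rule, for example MAP1LC3B at 0.36, GABARAPL1 at 0.57 and ULK1 at 0.26. GRN, which encodes the lysosomal and secreted progranulin, had 97.6, 125, 140, 121 and 165 per 1000000 without serum, against 18.9, 33.0, 40.8, 48.5 and 53.0 in log phase, a difference of 1.78 ± 0.37 without overlap.

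The palindrome TCACGTGA, a core of the element that TFEB binds, was searched in the RefSeq promoters, where both strands read alike. It was found in 3 of 22 autophagy and lysosome promoters (13.6%), in 16 of 324 promoters of the genes that were higher (4.94%) and in 170 of 7057 promoters of tested genes (2.41%). The 3 windows are shown with the match in capitals, and they lie at chr13:113297202-113297225, chr20:45891301-45891324 and chr19:7522574-7522597, all on the plus strand.
LAMP1: ccgcgggaTCACGTGAcgcccggg
CTSA: gccggagtTCACGTGActcgtaca
MCOLN1: agaggcggTCACGTGAggggctct
These 3 genes had differences of 0.67, 0.71 and 0.62 and did not meet the size rule.

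The families in this paragraph were chosen after their values were seen. Of 11 collagens with values 7 were tested, and all 7 met the rule, with a median of 1.37. So did 4 of 6 laminins, with a median of 1.20, and 7 of 9 cathepsins, with a median of 1.08. COL4A1, LAMA5, LAMB1 and LAMC3 averaged 4.01, 3.97, 4.82 and 3.22 per 1000000 in log phase. They passed the minimum mean of 5 only through the starved fractions, where they were high, so these counts partly follow from the minimum. COL6A2, a chain of type VI collagen, reached 1.86 ± 0.38, and COL6A1, its partner chain, had 13.2, 24.4, 26.1, 34.1 and 47.8 per 1000000 without serum, against 2.67, 8.32, 7.25, 10.9 and 12.0 in log phase. On the spike-in scale the medians of collagens, laminins and cathepsins were 0.68, 0.53 and 0.36. Against 4.83% of all tested genes, 16 of 113 TMEM genes (14.2%) were higher by the rule. So were 10 of 84 SLC carriers outside the SLC25 family (11.9%). Their medians were 0.46 and 0.53, and -0.26 and -0.15 on the spike-in scale. Of 30 SLC25 carriers, which sit in the mitochondrial inner membrane, 0 met it, and their median was 0.08.

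Among 16 endoplasmic reticulum chaperones and folding enzymes, 16 were above 0, against 68.1% of all genes. The median was 0.78, or 0.04 on the spike-in scale. By the rule 5 (31.25%) were higher, against 4.83% of all tested genes. The 5 were PDIA3 at 1.23 ± 0.22, HERPUD1, a component of the degradation machinery, at 1.23 ± 0.15, CALR at 1.06 ± 0.32, HSP90B1 at 1.03 ± 0.20 and PDIA6 at 1.01 ± 0.26. CALR, a calcium-binding chaperone, had 338, 444, 487, 456 and 548 per 1000000 without serum, against 117, 195, 239, 291 and 286 in log phase. The list of 17 heat shock chaperones had a median of -0.07, and of its members the mitochondrial TRAP1 was higher at 1.06 ± 0.57 and the HSP70 cochaperone BAG3 lower at -1.003 ± 0.29. The 8 subunits of the TRiC chaperonin had a median of 0.06.

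**Figure D4:**
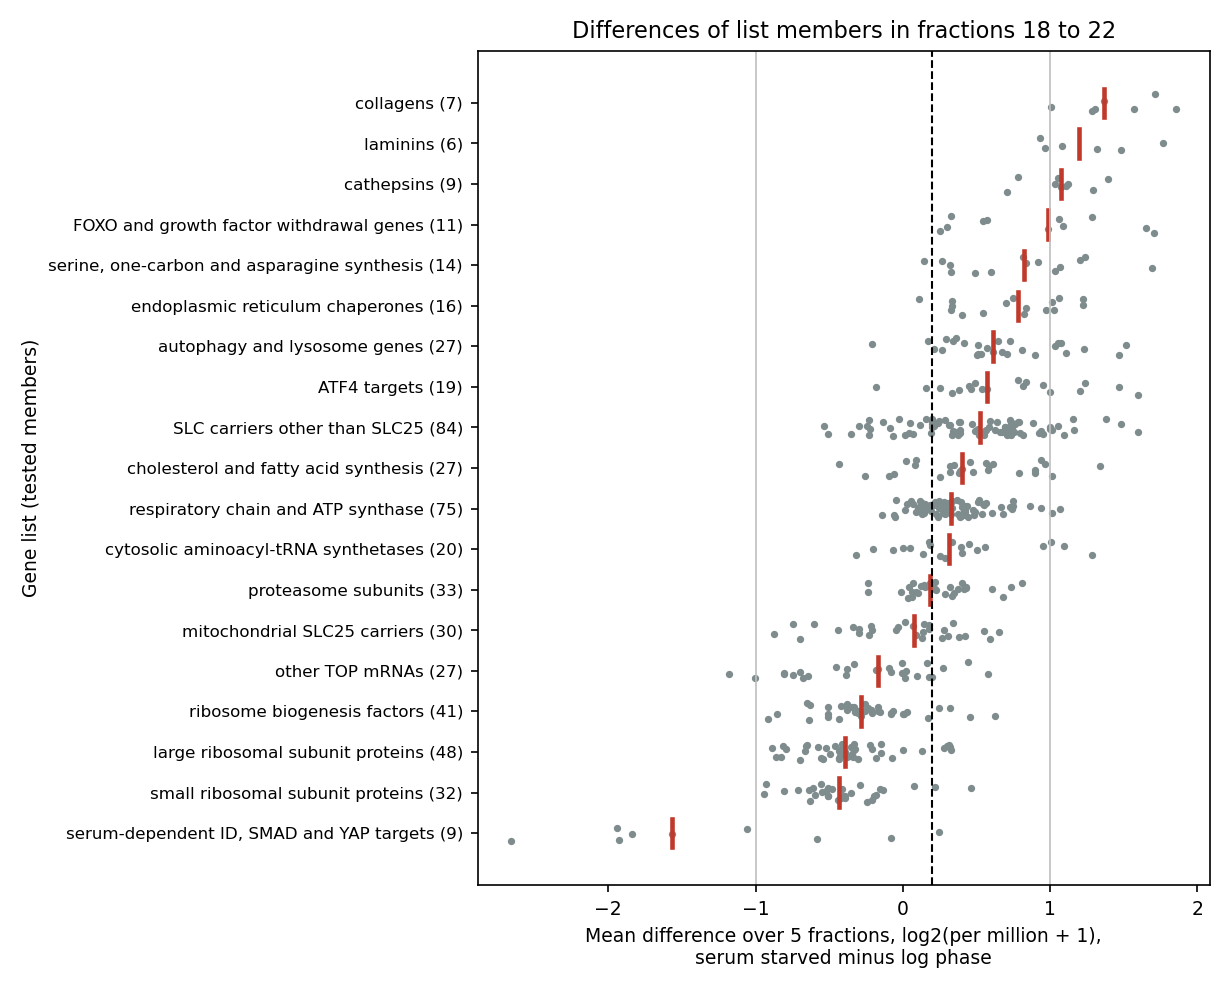
Mean difference of each tested member (grey points) and list median (red bars), serum starved minus log phase, for 19 gene lists, with the number of tested members in brackets. The dashed line is the median of all genes at 0.20, grey lines mark the size rule, and medians run from 1.37 for collagens to -1.57 for ID, SMAD and YAP targets. On the spike-in scale all medians are lower, and several of the positive ones fall below 0.

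Several enzymes of serine metabolism were higher. Of 14 genes of serine, one-carbon and asparagine metabolism, 14 were above 0, against 68.1% of all genes. The median was 0.83, or 0.08 on the spike-in scale. By the rule 5 (35.7%) were higher, against 4.83% of all tested genes. The 3 enzymes of the serine pathway were all among the 5. PHGDH, the first, had 497, 721, 1405, 2475 and 3210 per 1000000 without serum, against 141, 235, 536, 1406 and 2455 in log phase, a difference of 1.20 ± 0.59. PSAT1, the second, stood at 1.24 ± 0.12, and PSPH, the last, had 43.7, 52.7, 37.6, 32.8 and 19.3 per 1000000 without serum, against 17.1, 12.2, 9.93, 8.46 and 6.21 in log phase, at 1.69 ± 0.29. SHMT2, which passes the carbon of serine to folate in mitochondria, and CBS, which joins serine to homocysteine, stood at 1.03 ± 0.60 and 1.07 ± 0.42. PCK2, the mitochondrial phosphoenolpyruvate carboxykinase, had 32.0, 56.4, 115, 185 and 201 per 1000000 without serum, against 9.26, 14.8, 25, 51.2 and 68.9 in log phase, a difference of 1.81 ± 0.23. Its ranges overlapped, since both profiles climbed with fraction number.

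ATF4, the transcription factor of the integrated stress response, was itself at 0.48 ± 0.08. The median of 19 of its targets was 0.57, but -0.11 on the spike-in scale. Of these, 5 (26.3%) were higher by the rule, against 4.83% of all tested genes. Besides PHGDH and PSAT1 they were SLC7A11, a cystine transporter, at 1.60 ± 0.31, NUPR1 at 1.47 ± 0.47 and DDIT4, an inhibitor of mTORC1, at 1.00 ± 0.14. PPP1R15A, which directs a phosphatase to eIF2, stood at 1.05 ± 0.28. Aminoacyl-tRNA synthetases were higher by the rule in 3 of 20 cases (15%), against 4.83% of all tested genes. They were CARS at 1.29 ± 0.35, EPRS at 1.10 ± 0.51 and MARS at 1.01 ± 0.36.

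Immediate early genes, which serum induces in resting cells, did not move together. Of 17 tested, 3 (17.6%) were higher and 1 (5.88%) lower by the rule, against 4.83% and 0.429% of all tested genes. The median was 0.22. MYC had 1411, 1982, 2550, 2629 and 2441 per 1000000 without serum, against 1106, 1350, 1214, 925 and 747 in log phase, a difference of 1.04 ± 0.59 without overlap that widened toward fraction 22. BTG1, an antiproliferative gene, stood at 1.21 ± 0.16 and KLF4 at 1.02 ± 0.12. FOSL2 stood at -1.04 ± 1.03, from 0.759 to 5.80 per 1000000 without serum and 6.34 to 9.33 in log phase, values near the pseudocount. EGR1 and FOS were under 5 per 1000000 on average and were not tested.

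Sterol genes MSMO1 and INSIG1 met the rule at 1.34 ± 0.13 and 1.01 ± 0.12, the only ones of 27 in cholesterol and fatty acid synthesis. That is 7.41%, near the 4.83% of all tested genes that were higher. Proteasome subunits (33 tested) and glycolysis enzymes (17 tested) had 0 members past the rule and medians of 0.19 and 0.25. Respiratory chain and ATP synthase genes had 1 of 75 (1.33%), SDHA at 1.07 ± 0.14, with a median of 0.32. Ferritin mRNAs, whose translation iron controls, stood at 0.71 ± 0.13 for FTH1 and 0.82 ± 0.14 for FTL. Of 10 HEK293 markers 8 had values here, among them the neurofilament NEFM with means of 2186 per 1000000 without serum and 1575 in log phase, and KRT18, an epithelial keratin, was higher at 1.03 ± 0.61. Of 22 markers of other cell types only HBA1 had values, with means of 1.34 without serum and 0.615 in log phase.

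The differences changed along the block. Genes past 1 in a single fraction numbered 530, 447, 578, 636 and 943 higher and 223, 176, 59, 63 and 54 lower in fractions 18 to 22. Fraction 22 held little signal, 0.11% of the starved gradient's deposited gene total and 0.40% of the log phase one. For fraction 18 these were 8.04% and 17.1%. Its count of 943 is therefore less certain, and each fraction had equal weight in the means. As a description over 8391 genes that share libraries, differences correlated at 0.82 between fractions 18 and 19 and 0.79 between 21 and 22, but 0.42 between 18 and 22. HNRNPK, an RNA-binding protein, had 633, 1107, 2124, 2946 and 2394 per 1000000 without serum, against 1745, 1746, 1426, 1056 and 908 in log phase. It was therefore lower in fractions 18 and 19 and higher in 20 to 22. IDH2, a mitochondrial isocitrate dehydrogenase, ran the other way, with 101, 112, 108, 95.9 and 77.8 per 1000000 without serum and 24.9, 37.4, 66.9, 109 and 105 in log phase. Whether a fraction number marks the same depth in both gradients was not tested.

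In fractions 8 to 12 of the same gradients the difference had a median of -0.42 over all genes. ID1, ID3, CTGF and CYR61 were lower in both blocks, at -2.95, -3.76, -1.55 and -1.70 in fractions 8 to 12. EEF1A1 was higher there at 1.78, AMD1 at 0.99 and PABPC1 at 1.78, and the medians of large subunit, small subunit and other TOP mRNAs were 0.31, 0.18 and 1.19. Among the 405 genes that were higher in fractions 18 to 22, 24 (5.93%) were higher by at least 1 in fractions 8 to 12 and 39 (9.63%) were lower by at least 1, against 168 (2%) and 1235 (14.7%) of all tested genes. Of the 405, 291 (71.9%) lay above the all-gene median of fractions 8 to 12. PCK2, GRN and WLS, a carrier of Wnt proteins, belonged to the 24, at 1.26, 1.04 and 1.58. OTUB1, a deubiquitinase, and EIF2S2 belonged to the 39, at -2.46 and -1.26.

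**Figure D5:**
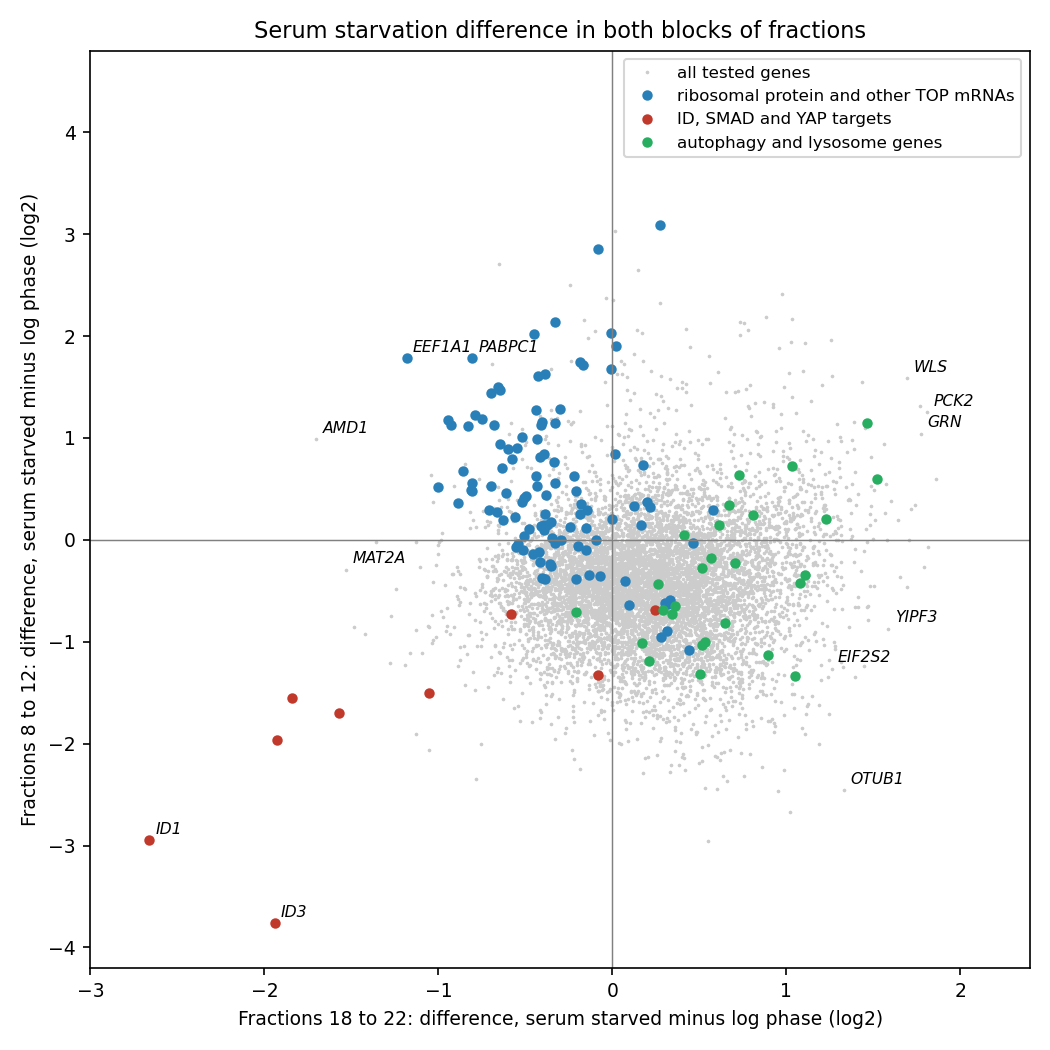
Mean difference in log2(value per 1000000 + 1), serum starved minus log phase, in fractions 18 to 22 (horizontal) and 8 to 12 (vertical) for 8391 genes. EEF1A1 lies at -1.18 and 1.78, ID1 at -2.66 and -2.95, and OTUB1 at 1.33 and -2.46.

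The amino acid-starved gradient was set against the same log phase fractions, so the comparisons share their controls and only the values are placed side by side. EEF1A1 stood at -1.18 without serum and -1.57 without amino acids, and AMD1 at -1.70 and -2.32. PSPH stood at 1.69 without serum and 2.55 without amino acids, and PCK2 at 1.81 and 2.25. Several lists stood high in both gradients, though the amino acid-starved medium contained serum. The FOXO list had medians of 0.99 without serum and 0.74 without amino acids, and autophagy and lysosome genes 0.62 and 0.73. In the same order, collagens had 1.37 and 1.12, laminins 1.20 and 1.01, and cathepsins 1.08 and 0.90. Endoplasmic reticulum chaperones had 0.78 and 0.58, and all tested genes 0.20 and 0.20. The ID, SMAD and YAP targets had -1.57 and 0.37. Some single genes also had opposite signs. ID1 stood at -2.66 without serum and 1.02 without amino acids, CYR61 at -1.57 and 1.25, and C10orf10 at 1.81 and -0.26. FTH1 and FTL stood at 0.71 and 0.82 without serum, and at -0.79 and -0.62 without amino acids.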

How the data were processed

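Poly(A)-selected RNA of gradient fractions was sequenced with 75 nt reads, per the labels' protocols. Reads were processed with kallisto 0.44.0 and sleuth 0.29.0 on hg38, per the submitters' processing notes. The authors deposited 1 signal value for each gene and fraction, in columns that carry a further scale not given in the sources used here. Depth is unknown, so no counting interval was attached. All 60 columns were mapped to samples. The 29 ERCC rows and 1 luciferase row were dropped from 11074 genes, and each column was rescaled to 1000000. Differences used a pseudocount of 1, which understates changes of low genes, and a minimum mean of 5, which left 8391 genes. Named genes were the 12 highest and 12 lowest with at least 20 per 1000000 in either gradient, in each of 34 lists the most abundant, the highest and the lowest member, and a list of single genes. Others, such as MSMO1, SHB and members of the 8 families added later, were chosen after their values were seen. Members and lists were chosen with earlier results of these data known. Alternatives changed the pseudocount, minimum, scale, size rule, pairing and fractions used. The calculation was tested on simulated data. Python 3.11.15, numpy 2.4.6 and pandas 2.3.3 were used. Values of a few genes are not reported here.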

Additional observations from a re-analysis of the deposited data

Results flagged for a closer look

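Spike-in RNAs were left out of the comparison and made up more of the gene signal without serum than in log phase in each of the 5 fractions. The ERCC RNAs came to 0.0383%, 0.0419%, 0.0382%, 0.0513% and 0.221% of the gene total in serum-starved fractions 18 to 22, against 0.0257%, 0.0227%, 0.0245%, 0.0286% and 0.126% in log phase. The luciferase RNA came to 0.44%, 0.413%, 0.447%, 0.603% and 2.65% without serum, against 0.216%, 0.229%, 0.229%, 0.27% and 0.951% in log phase. Fraction 22 was the highest in both gradients. On the scale of the ERCC RNAs the median difference of all genes was -0.50.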

How the results depend on the processing

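Counts are given as higher to lower genes and list medians as large subunit, small subunit and other TOP mRNAs, against 405 to 36 and -0.39, -0.43 and -0.17. With a pseudocount of 5 there were 161 to 17, and with a minimum mean of 20 there were 226 to 19, where fewer genes were tested. Centring gave 142 to 86 and -0.60, -0.64 and -0.38, and a total without TOP mRNAs gave 150 to 85 and -0.61, -0.65 and -0.38. The spike-in scale gave 7 to 980 and -1.14, -1.18 and -0.92, and the deposited scale 0 to 7970 and -2.78, -2.83 and -2.52. Starved fractions 18 to 21 against log phase 19 to 22 gave 535 to 188 and -0.092, -0.20 and -0.28. Of the 535, 313 were among the 405, and 29 of the 36 lower genes remained. Starved 19 to 22 against log phase 18 to 21 gave 654 to 55 and -0.68 and -0.67 for the subunits. Of the 654, 287 were among the 405, and 26 of the 36 remained. A size rule of 1.5-fold gave 1595 to 230 and one of 1.5 on the log2 scale gave 23 to 7. Leaving out each fraction in turn gave 372 to 457 higher and 26 to 41 lower genes, and medians of -0.42 to -0.37, -0.47 to -0.41 and -0.24 to -0.12. Without fractions 18 and 19, added after seeing the data, the other TOP mRNAs stood at -0.31. A tally of 2018 values of 137 named genes left out the deposited and spike-in scales. In it, 1760 values moved by less than the spread over fractions and 258 by more, and 0 of the called genes changed sign. Of the 405 higher genes, 7 still met the rule on the spike-in scale and 0 on the deposited scale. On the deposited scale every tested collagen and FOXO list member lay below 0. The cause of these movements was not tested. Fractions were matched by number, and no replicate gradients were there to pair.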

Other observations

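Further gene groups are given here beside the median of all genes, 0.20, and several of them lay away from it. The median was 0.12 over 184 zinc finger genes of the C2H2 class, 0.31 over 32 S phase genes and 0.29 over 27 mitotic genes, and 0 of each met the size rule. SR splicing factors and CLK kinases had a median of 0.01 over 20, and hnRNP genes 0.15 over 19, which ran from -0.36 in fraction 18 to 0.56 in fraction 21. Actin, tubulin and actin-binding genes had a median of -0.07 over 30. Kinesins of the KIF family, chosen after their values were seen, had a median of -0.14 over 18. Very long coding sequences had a median of 0.13 over 20, from -0.29 in fraction 19 to 0.81 in fraction 22, and 1 met the rule, DNAH14, an axonemal dynein, at 1.05. Over 39 genes with very short coding regions the median was 0.09, and MT1X was their member past the rule. The 4 tested replication-dependent histones had a median of 0.45, in RNA selected by its poly(A) tail, which most of their transcripts lack. Polyamine and iron regulated mRNAs had a median of 0.27 over 15, with AMD1 as the member past the rule. mRNAs with regulatory upstream reading frames had a median of 0.37 over 13. The 4 MTRNR2L genes, near-copies of a mitochondrial gene whose reads may be shared, had medians of 1.30 and 1.46 in fractions 18 and 19 and -0.44 and -0.45 in fractions 21 and 22. After centring, the medians of the zinc finger, SR, hnRNP, very long and very short groups were also below 0. The median of each of these lists was below 0 on the spike-in scale.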
